A study of Capra hircus with 23 samples.

Results

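A set of 100 transcript features of goat ear fibroblasts was selected for a mean level at day 4 of a small molecule induction near that of 2 untreated fibroblast libraries, and for a lower level at day 8. On days 1 to 3, 15 of them were raised over the mean of these untreated libraries, CK1 and CK2. In 51, every library of days 1 to 3 stayed within 1 log2 of that mean. Among features outside the list at or above the lowest member's day 4 level, the shares were 8.50% and 54.2%. Another untreated library, CK3, was not used by the selection and lay apart. It was at least 1 log2 below that mean in 83 members, within 1 in 10 and at least 1 above in 7. With CK3 also taken as day 0, the selection took 36 of the 100 members. The members were selected from the 28931 features of the count table by their values at days 0, 4 and 8. Levels were CPM, the count of a feature scaled to the total of its library, and y was log2(CPM + 1). A feature was ranked when its day 8 libraries held 1 or more counts in sum and its mean y at day 4 lay within 1 of the mean y of CK1 and CK2. These conditions were met by 17409 features. The score was the lowest y of the 3 day 4 libraries minus the highest y of the 3 day 8 libraries, and the 100 highest scores were taken. The level at day 4 and the lower level at day 8 therefore follow from the selection, and they are described without a test.

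The study followed ear fibroblasts of young Guanzhong dairy goats (Capra hircus) during their induction towards mammary epithelial-like cells. At day 0 the cells were untreated fibroblasts, and at days 1, 2, 3, 4, 6 and 8 they had been in an induction medium named BFRTV in the labels and 5i in the study. The study's methods describe sequencing of total RNA after depletion of ribosomal RNA. The libraries used here were 3 each at days 0, 4 and 8 and 2 each at days 1, 2, 3 and 6, 17 in all. Each library is named as its column was: CK1, CK2 and CK3 at day 0, 5i1d1 and 5i1d2 at day 1, and likewise up to 5i8d3. All groups were bulk cultures on Matrigel. By day 8 the dishes held primary colonies, so a library can hold a mixture of cells. In such bulk samples, fewer cells of a type and less RNA per cell cannot be told apart. The sample titles carry the codes DF6 and DF7, with 1 DF6 sample and 1 or 2 DF7 samples on each day, and the labels do not say whether the codes mark animals, cultures or runs. Some titles also carry a number before the code. The columns could not be tied to these codes or numbers, so their part in the differences between libraries of a day, and in those of CK3, was not tested. The study calls the replicates of its own untreated and final groups biological, and whether they are the libraries used here was not stated. The p-values rest on the spread of these libraries, which may be technical in part. On days 1, 2, 3 and 6, which were tested, the 2 samples of a day were 1 of each code. The spread within these days therefore holds any difference between the codes.

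The study's methods list forskolin, which activates adenylate cyclase, TTNPB, an agonist of retinoic acid receptors, and valproic acid, an inhibitor of histone deacetylases. The others are RepSox, which inhibits the TGF-beta type I receptor kinase, and tranylcypromine, an inhibitor of the histone demethylase LSD1. Fibroblasts make the collagens and other matrix proteins of connective tissue, whereas mammary epithelial cells line the ducts and alveoli of the udder and secrete milk. A transcript that keeps its level through the first days under the compounds and is lower only later differs from one that responds at once.

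The features carried running numbers as IDs, and the tables did not pair them with gene names. Of the 28931 IDs, 0 were found among 28911 RefSeq genes, so no function, sequence or genome position is given for any member. The fibroblast and mammary markers could not be checked for the same reason. All 100 members had an ID with the prefix gene, between numbers 587 and 27210. No member had a number next to that of another, and 6 were within 10 numbers of another. The members with the highest and second highest score, gene19090 and gene12108, are given by ID, and other members are described by their place in an order of values and were picked after those values were seen.

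The library totals ran from 21540742 to 26165393 counts. The third day 0 library, CK3, stood apart. Its TMM factor, the scaling edgeR derives from the bulk of the features, was 0.346, against 0.984 to 1.17 in the other 16 libraries. Weighted by counts, the features averaged 2552 nt in CK3, 3259 nt in 5i1d2, 3560 nt in 5i2d2 and 3855 to 4118 nt elsewhere. CK3 was not used by the selection, and the values that rest on it are given apart.

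In the libraries used by the selection, the median member had 48.8 CPM in CK1 and 47.2 CPM in CK2, 48.3, 50.2 and 58.3 CPM in 5i4d1, 5i4d2 and 5i4d3, and 7.59, 8.35 and 11.0 CPM in 5i8d1, 5i8d2 and 5i8d3. The mean level at day 4 ran from 6.96 to 1205 CPM over the members, with a median of 52.4 CPM. The mean level at day 8 ran from 0.602 to 127 CPM, with a median of 9.63 CPM. The members thus spanned features with few and with many counts and were still counted at day 8. The ratio of the day 4 to the day 8 mean was 3.77 to 12.4 with a median of 5.39. The scores ran from 2.70 to 1.70 with a median of 1.91. The last member inside the list had 372 to 404 CPM at day 4 and 81.8 to 113 CPM at day 8, and the first feature outside had 50.9 to 63.1 CPM and 10.8 to 14.9 CPM. Their scores were 1.705 and 1.703, so the end of the list is not a gap in the scores.

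The libraries of a day were not alike. 5i8d3 was above 5i8d1 and 5i8d2 in 85 of the 100 members, by a median of 0.36 in y over their mean. 5i4d3 was above 5i4d1 and 5i4d2 in 78 members, by a median of 0.21. For comparison, 10852 features outside the list had a lowest day 4 level at or above that of the lowest member (6.51 CPM) and are called the other features here. Among these, 5i8d3 was above both in 49.7% and 5i4d3 in 44.3%. As the score uses the highest day 8 library, 5i8d3 set the score of most members.

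**Figure D1:**
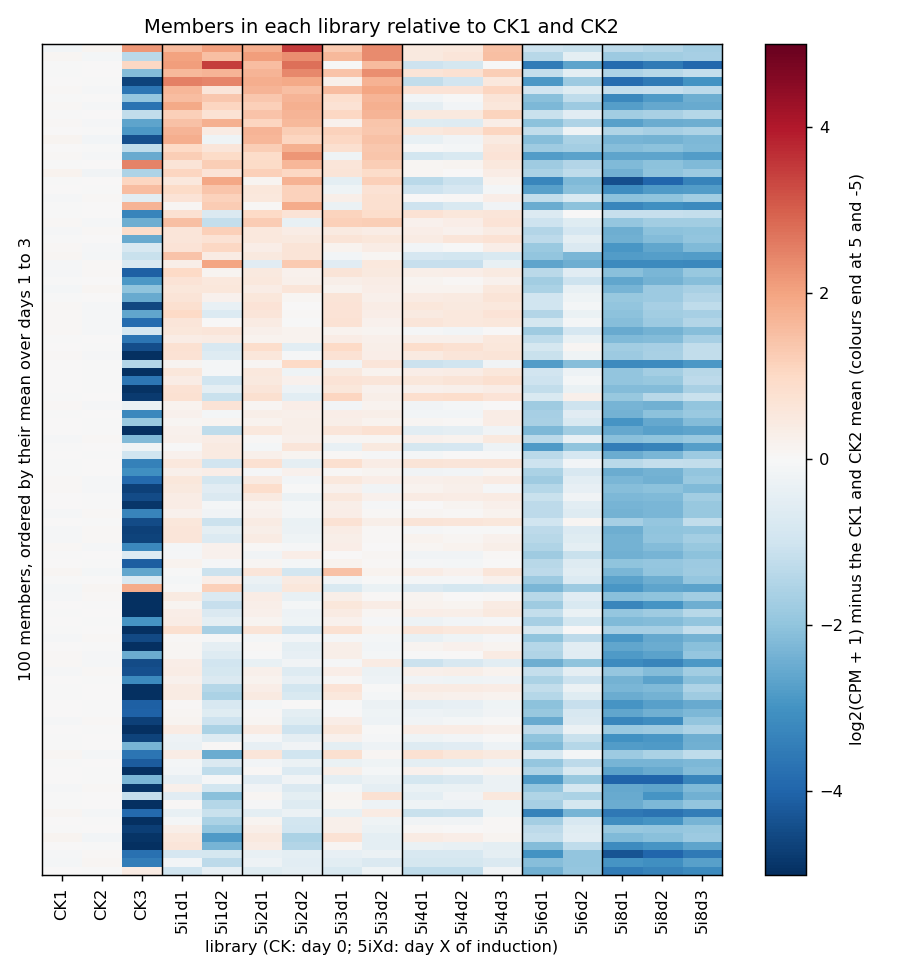
Difference in log2(CPM + 1) from the CK1 and CK2 mean for the 100 members (1 row each, ordered by their mean over days 1 to 3) in the 17 libraries (columns, grouped by day); red is higher and blue lower. The columns of days 1 to 4 are mostly pale apart from the 15 members raised over days 1 to 3 at the top, days 6 and 8 are blue, and CK3 is blue in most members while CK1 and CK2 are near white.

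The feature gene19090 had the highest score, 2.70. It had 58.1 CPM in CK1 and 63.7 CPM in CK2 but 3.71 CPM in CK3. Its levels were 33.9 and 32.4 CPM at day 1, 46.4 and 43.0 CPM at day 2, 45.9 and 49.8 CPM at day 3 and 34.2, 34.2 and 44.5 CPM at day 4. At day 6 it had 6.72 CPM in 5i6d1 and 14.7 CPM in 5i6d2, and at day 8 it had 2.07, 2.97 and 4.40 CPM. Both day 6 libraries lay below every library of days 1 to 4 and above every library of day 8, and the lowest of these values rested on 46 counts. Between day 3 (47.8 ± 2.75 CPM, SD, n = 2) and day 6 (10.7 ± 5.64 CPM, SD, n = 2) the log2 fold change was -2.06 (SE 0.39, adjusted p = 0.0781 by edgeR's quasi-likelihood test). Over the 16 other settings this adjusted p ran from 0.000161 (DESeq2) to 0.537, and 3 of them passed the threshold of 0.05. Against the mean of days 1 to 3 gene19090 fell at day 6 (log2 fold change -1.89, SE 0.34, adjusted p = 0.0154 by edgeR). For this comparison the 16 other settings ran from -2.56 to -1.43, with an adjusted p of 3.45e-06 to 0.120. The call was lost without 5i6d1 (adjusted p = 0.120) and in the fit of 17 libraries (adjusted p = 0.0526).

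The feature gene12108 had the second highest score, 2.57. It had 214 CPM in CK1, 208 CPM in CK2 and 4.32 CPM in CK3. At day 1 it had 231 CPM in 5i1d1 and 95.4 CPM in 5i1d2. Its levels then were 258 and 198 CPM at day 2, 311 and 272 CPM at day 3 and 239, 233 and 282 CPM at day 4. The day 1 libraries were thus further apart than those of the next days, and the lower of them was 5i1d2. At day 6 it had 60.4 and 124 CPM, and at day 8 it had 21.3, 26.1 and 38.4 CPM. 5i6d2 overlapped with the range of days 1 to 3 through 5i1d2 alone. The log2 fold change was -1.56 between day 3 and day 6 (SE 0.44, edgeR adjusted p = 0.148) and -1.19 between the mean of days 1 to 3 and day 6 (SE 0.38, edgeR adjusted p = 0.0807), so neither passed the threshold of 0.05 in this fit. Over the 16 other settings the first ran from -2.16 to -1.13 (adjusted p of 0.0264 to 0.692) and passed in 1, DESeq2. The second ran from -1.79 to -0.75 (adjusted p of 0.0206 to 0.492) and passed in 3, among them DESeq2 and the edgeR fit without 5i1d2 (-1.33, adjusted p = 0.0374).

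**Figure D2:**
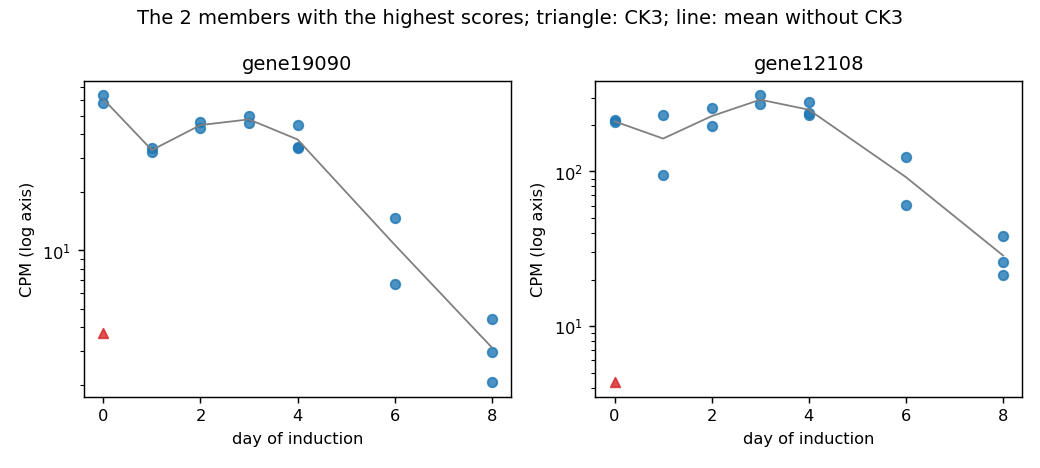
Level of gene19090 (left) and gene12108 (right) in CPM (log axis, vertical) by day of induction (horizontal), 1 point per library; the triangle is CK3 and the line joins the means of each day without CK3. Over days 1 to 4 gene19090 lies between 32.4 and 49.8 CPM and gene12108 between 95.4 and 311 CPM, and CK3 lies at 3.71 and 4.32 CPM, far below CK1 and CK2.

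The days between day 0 and day 4 were not used by the selection and show how level the members stayed. The median member had 67.6 and 48.4 CPM at day 1, 65.8 and 48.4 CPM at day 2 and 62.0 and 53.2 CPM at day 3. In 51 members all 6 libraries of days 1 to 3 were within 1 of the CK1 and CK2 mean in y, as in 54.2% of the other features. The mean of days 1 to 3 minus that of CK1 and CK2 had a median of 0.18 (-0.57 to 2.10), and 0.12 in the other features. By these 2 measures the members were near to the other features. Those were matched on their day 4 level alone and did not have to lie within 1 of CK1 and CK2 at day 4. The comparison therefore does not show whether the members were more or less level than features that met this condition. Between day 1 and day 3 edgeR called 0 of the 100 members and 0 (0%) of all 16268 features tested. At an unadjusted p under 0.05, 4 members were lower at day 3, where the share over all features was 5.27%, and 2 were higher, where it was 4.71%. DESeq2 called 0 members, and 167 features lower and 207 higher. With the number that ends the column name fitted as a block, edgeR called 1 member, and 134 features lower and 132 higher. The members' log2 fold changes between day 1 and day 3 had a median of 0.05 and ran from -2.07 to 1.71.

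A group of 15 members was at least 1 above the CK1 and CK2 mean over days 1 to 3, a share of 8.50% in the other features, and 0 members were at least 1 below, where it was 4.28%. Relative to CK1 and CK2, the medians of these 15 on days 1, 2, 3 and 4 were 1.45, 1.55, 1.25 and 0.17. These members were therefore raised before day 4 and back near the CK1 and CK2 level at that day, so the rule, which compares day 4 with day 0 alone, takes them as level. At day 6 their median was -1.67. The other 85 members had medians of -0.04, 0.08, 0.19 and 0.12 at days 1, 2, 3 and 4 and -1.12 at day 6. With TMM-scaled CPM, a setting chosen after seeing the data, 11 members were raised in place of 15, against 6.76% of the other features.

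The member with the largest such rise had 4.38 and 5.59 CPM in CK1 and CK2 and 26.1 CPM in CK3. It had 16.9 and 23.9 CPM at day 1, 19.8 and 65.7 CPM at day 2 and 13.7 and 30.0 CPM at day 3. All 6 libraries were above CK1 and CK2, and library 2 of each day was the higher. It then had 7.32, 7.70 and 15.3 CPM at day 4, 1.89 and 1.78 CPM at day 6, and 1.40, 1.18 and 0.841 CPM at day 8. Its day 6 and day 8 libraries were all below CK1 and CK2. The member lowest over days 1 to 3 against CK1 and CK2 had 142 and 141 CPM in these, 186 CPM in CK3, 71.1 to 123 CPM over days 1 to 3, 58.1, 58.7 and 125 CPM at day 4, 25.7 and 36.6 CPM at day 6 and 11.4 to 14.8 CPM at day 8.

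Day 6 was compared with days 1 to 3 to ask whether the lower level of day 8 was already seen at day 6, in libraries that the selection did not use. The median member had 14.7 CPM in 5i6d1 and 26.2 CPM in 5i6d2, against 48.4 to 67.6 CPM in the 6 libraries of days 1 to 3. The members' log2 fold changes had a median of -1.28 (-5.23 to -0.37) and all 100 were below 0, while the median over the 16268 features tested was -0.04 and 51.8% were below 0. By edgeR's quasi-likelihood test 51 members were lower at day 6 and 0 were higher (also 0 at an unadjusted p under 0.05 and with DESeq2), and the share called lower among all features was 5.98% (973 features). All 15 members raised over days 1 to 3 were among the 51, with 36 of the other 85. Their rise and this comparison rest on the same libraries of days 1 to 3. The 51 had a median log2 fold change of -2.10 and the other 49 one of -0.91. The lowest adjusted p of a member was 0.00374. The number rested on both day 6 libraries: all of these calls were lost without 5i6d1 and most of them without 5i6d2. It was also lower without any single library of day 2 or day 3, and higher without either of day 1. In such a fit the library left for a day takes its spread from the other days. Over all features the lower calls also dropped without either library of day 6 or day 3. The median without 5i6d1 was -0.91 and without 5i6d2 -1.85, and all 100 values stayed below 0 in both.

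In 65 members both day 6 libraries were below all 6 libraries of days 1 to 3, a share of 26.1% over all features tested. 5i6d1 was below all 6 in 87 members (33.0% of the other features) and 5i6d2 in 65 (30.4%). In all 100 members both day 6 libraries were below both of day 3, which held in 40.1% of the features tested. The 51 members called lower were all among the 65.

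**Figure D3:**
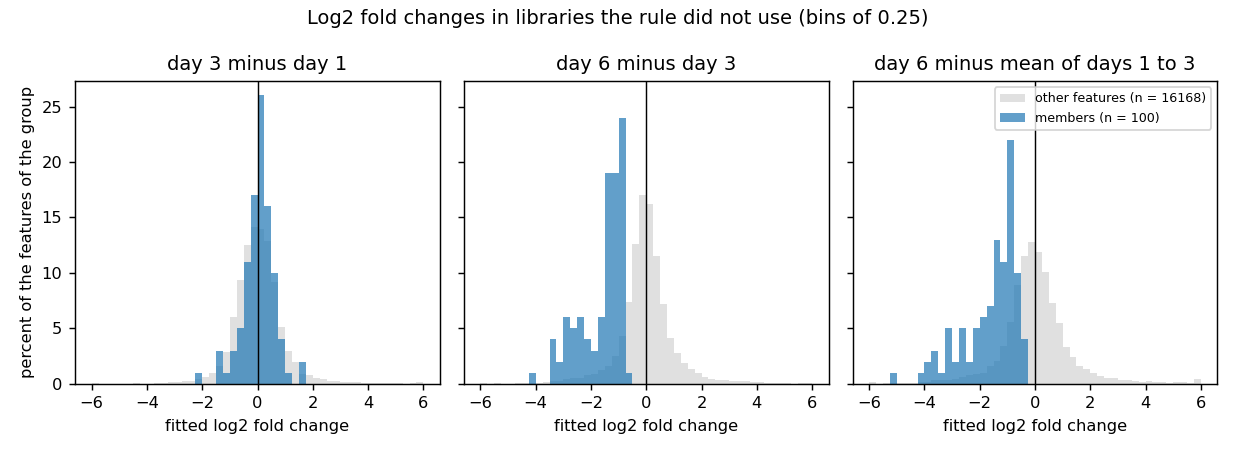
Percent of features (vertical axis) by fitted log2 fold change (horizontal axis, bins of 0.25) for day 3 minus day 1, day 6 minus day 3 and day 6 minus the mean of days 1 to 3, for the 100 members (blue) and the 16168 other features tested (grey); values past the ends of the axis are in the outermost bins. The members centre on 0.05 in the first panel and lie wholly below 0 in the others, with medians of -1.34 and -1.28.

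From day 3 alone to day 6, with 2 libraries on each side, edgeR called 0 members and 0 (0%) of all features tested. The members' log2 fold changes had a median of -1.34 (-4.11 to -0.74), all 100 below 0, and the lowest adjusted p was 0.0580. At an unadjusted p under 0.05, 73 members were lower and 0 higher, where the share of lower features over all tested was 8.60%. DESeq2 called 46 members lower, where its share over all features was 3.54% (593 of 16769). The direction was shared by all members in both tools, and the call depended on the tool. Within edgeR it also depended on the setting. Without a filter edgeR called 25 members lower (205 of 21853 features), and in the fit of 17 libraries 11 (106 of 16765). With the number that ends the column name fitted as a block, it called 49 (738 of 16268). The comparisons with day 3 and with days 1 to 3 share the day 6 libraries and those of day 3.

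The day 6 libraries differed from each other in the members. 5i6d2 was above 5i6d1 in 97 of 100 members, against 57.4% of the other features, and the median difference in y was 0.79, against 0.04. In 5i6d1 the median member had covered 72.0% of the log2 distance from its day 4 to its day 8 mean, and in 5i6d2 36.4%. Both day 6 libraries were below all day 4 libraries in 100 members and above all day 8 libraries in 96, which held in 39.8% and 20.4% of the other features. As the days 4 and 8 chose the members, these positions are a description.

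The members made up 0.956% and 0.953% of the counts of CK1 and CK2, 1.12% to 1.76% over days 1 to 3, and 0.797%, 0.827% and 1.13% at day 4. Their share was 0.244% and 0.442% at day 6 and 0.134%, 0.148% and 0.191% at day 8. The member with the most counts weighed on the sum of some libraries. It had 1804 and 1818 CPM in CK1 and CK2 and 3802 CPM in CK3, 2639 and 6989 CPM at day 1, 1974 and 5980 CPM at day 2 and 1294 and 4141 CPM at day 3. It then had 721, 849 and 2045 CPM at day 4, 186 and 395 CPM at day 6 and 85.6, 117 and 179 CPM at day 8. Library 2 of days 1 to 3 was the higher each time, and the day 6 libraries were below all before them. The log2 fold change of this member between days 1 to 3 and day 6 was -3.67 (SE 0.88, edgeR adjusted p = 0.0364). Without it, the members' share was 0.926% to 1.17% over days 1 to 3.

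The member with the fewest counts relative to the totals had 5.88 and 4.94 CPM in CK1 and CK2 and 1 count in CK3. It had 5.39 and 2.03 CPM at day 1, 8.69 and 2.36 CPM at day 2, 16.8 and 6.28 CPM at day 3 and 7.19, 6.51 and 8.62 CPM at day 4. Here library 1 of days 1 to 3 was the higher each time. At day 6 it had 1.59 and 3.43 CPM, and at day 8 it had 7, 16 and 22 counts, or 0.315 CPM (exact Clopper-Pearson 95% interval 0.127 to 0.649), 0.650 CPM (0.372 to 1.06) and 0.841 CPM (0.527 to 1.27). These intervals cover counting error only. The counts of even this member were above the level that a count of 0 allows (3 counts, 0.115 to 0.135 CPM at day 8). The interval in 5i8d1 reached below the 0.135 CPM of that library. No member was at 0 outside CK3.

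The selection compared day 4 with CK1 and CK2, and CK3 lay apart from both. The median member had 2.81 CPM in CK3. CK3 was below both CK1 and CK2 in 91 members (74.4% of the other features), at least 1 below their mean in y in 83 (63.5%) and at least 3 below in 57 (34.5%). It was within 1 in 10 members (21.9%) and at least 1 above in 7 (14.6%), and 4 members had 0 counts there (1.67%), which allows up to 0.139 CPM. The median difference was -3.41 in the members and -2.04 in the other features. With TMM-scaled CPM, chosen after seeing the data, these medians were -2.46 and -0.84, and 67 members were at least 1 below, against 48.0% of the other features. Under both scalings CK3 was thus lower relative to CK1 and CK2 in the members than in the other features by the median, a difference that was not tested. When CK1, CK2 and CK3 were all taken as day 0, the rule took 36 of the 100 members.

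The member highest in CK3 relative to CK1 and CK2 had 1481 CPM there against 258 and 268 CPM. It had 407 and 613 CPM at day 1, 509 and 841 CPM at day 2, 399 and 613 CPM at day 3 and 280, 292 and 380 CPM at day 4. At day 6 it had 75.8 and 94.6 CPM and at day 8 55.6, 62.2 and 56.8 CPM. Between days 1 to 3 and day 6 its log2 fold change was -2.67 (SE 0.42, adjusted p = 0.0109 by edgeR). The member of rank 50 by score showed the opposite, with 56.5 and 58.8 CPM in CK1 and CK2 and 1.25 CPM in CK3. It had 70.7 and 13.8 CPM at day 1, 71.0 and 28.4 CPM at day 2 and 69.2 and 45.2 CPM at day 3, 58.0 to 59.9 CPM at day 4, 22.7 and 37.7 CPM at day 6 and 14.4 to 14.8 CPM at day 8. Members low in CK3 were thus lower in library 2 of the early days in this example, and the member high in CK3 was higher there.

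Over all 100 members, the difference between CK3 and the CK1 and CK2 mean went with the difference between 5i1d2 and 5i1d1 (Pearson's r of 0.734, Spearman's rho of 0.731 across members). The same was seen across the 10852 other features (0.778 and 0.805). These correlations are across features of the same 5 libraries, and features are not independent replicates. At day 1 the median of 5i1d2 minus 5i1d1 in y was -0.69 in the members and -0.25 in the other features. Library 2 of day 1 was the higher in 29 members (40.8% of the other features). At days 2 and 3 library 2 was the higher in 36 (41.6%) and 42 (45.1%). Library 2 was above library 1 on all 3 days in 21 members (30.5% of the other features) and below on all 3 days in 49 (45.3%). The part of these differences in the tests was not tested beyond the settings named here.

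**Figure D4:**
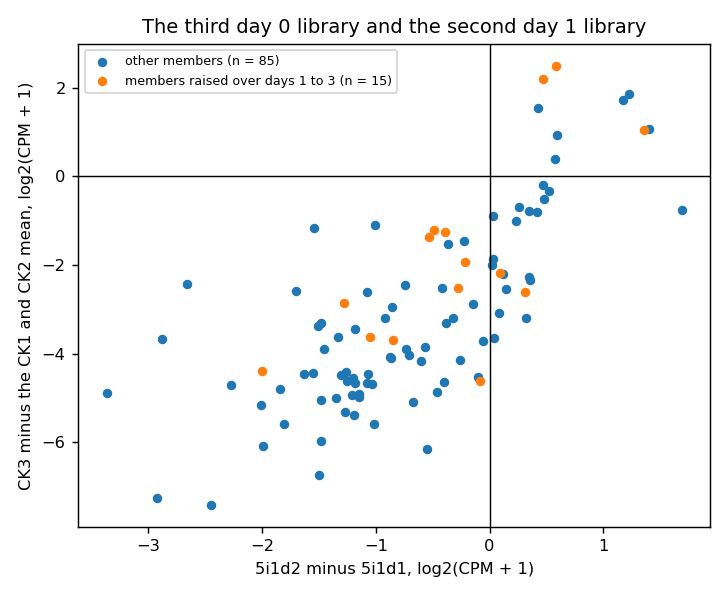
Difference between CK3 and the CK1 and CK2 mean (vertical axis) against that between 5i1d2 and 5i1d1 (horizontal axis), both in log2(CPM + 1), 1 point per member; the 15 members raised over days 1 to 3 are orange. Members low in CK3 tend to be low in 5i1d2, and CK3 is at least 1 below CK1 and CK2 in 83 of the 100.

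Length was not used by the selection. The FPKM table implies 1 length per feature, which was 742 to 18322 nt in the members with a median of 3119 nt, against a median of 3204 nt in the other features. The 15 members raised over days 1 to 3 had a median of 4289 nt and the other 85 one of 3045 nt. Per length, the members' level at day 4 had a median of 18.4 FPKM, against 13.0 FPKM in the other features. The difference between CK3 and the CK1 and CK2 mean had a Pearson's r with length of -0.26 across members and -0.36 across the other features. The members were thus of like length to other features of their levels by the median.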

How the data were processed

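The deposited tables hold raw counts per feature in whole numbers and FPKM values. All 22657 features of the deposited FPKM table followed from the count, the library total and 1 whole-number length each, within a relative tolerance of 1e-06. The submitters' processing notes name FastQC 0.10.1, HTSeq and DESeq2 1.16.1. The aligner, build, annotation and strand setting are not given in the sources used here, so reads shared between near copies or overlapping genes cannot be told apart. Of 23 labelled samples, the 6 of passaged induced cells and natural mammary epithelial cells were not analysed here. Columns were assigned to days by name and not to single labelled samples or to the codes DF6 and DF7 in the titles.

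The members and comparisons were chosen with earlier results of these data known. Counts of the 8 libraries of days 1, 2, 3 and 6, none of which the selection used, were fitted over all features with edgeR 4.0.16 in R 4.3.3 (filterByExpr, TMM normalization and the quasi-likelihood F test; Benjamini-Hochberg adjustment over all 16268 features tested, with calls under 0.05). Totals of 21540742 to 26165393 counts per library make 3 counts equal to 0.115 to 0.139 CPM. The SE was derived from the fold change and F. All 100 members passed filterByExpr. Levels are CPM by column totals without TMM factors. Alternatives were RLE normalization, DESeq2 1.42.0, no filter, a minimum mean of 5 CPM, limma-trend (3.58.1) on FPKM with pseudocounts of 1 and 0.1 in log2, a fit of 17 libraries, leaving out each library and a block. The edgeR fit was tested for day 6 minus day 3 on simulated counts with set falls at day 6. These counts were drawn independently, without the difference between library 2 and library 1 seen in days 1 to 3. The simulation therefore does not show how the calls behave under such a difference. By the rule for named features, as no ID had a gene name and 0 members were called in both day 6 comparisons, the 2 members with the highest scores are named. The rule also allowed members called higher at day 3 than at day 1, of which there were 0.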

Additional observations from a re-analysis of the deposited data

How the results depend on the processing

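Members called lower at day 6 than at day 3 numbered 0 with edgeR, 46 with DESeq2, 25 without a filter, 6 and 3 with limma on log2(FPKM + 1) and log2(FPKM + 0.1), 11 in the fit of 17 libraries and 0 to 7 without single libraries. Over all features the lower calls were 0 with edgeR and, in the same order, 593, 205, 43, 33, 106 and 0 to 33. The 51 members lower at day 6 than over days 1 to 3 became 33 in the fit of 17 libraries (688 over all features, against 973) and 0 to 58 without single libraries, where the single library left for a day takes its spread from the other days. RLE normalization, DESeq2, no filter, a mean of 5 CPM and limma gave 49 to 65. Their lower calls over all features ran from 628 of 11856 tested (mean of 5 CPM, 49 members) to 1710 of 18040 (DESeq2, 65 members). The cause of these differences was not tested. Of the 100 fold changes, 97 were below 0 without 5i1d1. Over all features, 58.3% of these calls were higher, against 43.1% with limma on log2(FPKM + 0.1).

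With the column number as a replicate block, 49 members were called lower at day 6 than at day 3, 62 lower than over days 1 to 3 (99 fold changes below 0) and 1 changed between day 1 and day 3, where 0 were called without it. Over all 16268 features, the block called 738 lower and 808 higher, 2239 lower and 2757 higher, and 134 lower and 132 higher, so the calls rose in all features as well. Under it gene19090 passed between day 3 and day 6 (adjusted p = 0.00989), and gene12108 against days 1 to 3 (adjusted p = 0.0499). The differences between library 2 and library 1 correlated across features at 0.668 to 0.834 among days 1 to 3. With day 6 they correlated at 0.0514, 0.150 and 0.292. As 1 of the 6 day pairs was under 0.1, the numbers were not taken as pairs in the main fit. Among days 1 to 3 the difference was shared, and the main fit counts it as spread between the libraries of a day. Its 0 calls between day 1 and day 3 and between day 3 and day 6 are subject to this limit. A block on the DF6 and DF7 codes in the titles was not run because columns could not be tied to labelled samples.

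The rule shared 36 members with CK3 in day 0 and 65 with day 4 within 0.5 of day 0. It shared 76 to 95 with FPKM, log2(CPM + 0.1) or TMM-scaled CPM, and 76 (without 5i8d3) to 99 without single libraries. No direction of gene19090 or gene12108 reversed in the 16 settings.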
